A study of Mus musculus with 14 samples.

Results

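Heat shock proteins and chaperonins fold new proteins, refold damaged ones and pass those beyond repair to the proteasome or to autophagy. HSP70 works in a cycle of ATP binding and release: J-domain proteins (the Dnaj genes) bring it clients and start ATP hydrolysis, while BAG proteins, HSP110 proteins and Hspbp1 release its nucleotide. The CCT ring folds actin and tubulin, the building block of the microtubules that doublecortin binds, small heat shock proteins hold unfolded proteins without ATP, and heat or proteotoxic stress raises the inducible members through the transcription factor HSF1.

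The genes described here were taken by the start of their symbol on the array platform: Hspa, Hspb, Hsp90a, Hspd, Hspe, Hsph, Dnaja, Dnajb, Dnajc, Bag with a digit or Cct with a digit, leaving out Hspa5 and Dnajc5. The platform held 76 such genes, of which 55 were measured, among 9355 features tested in all. Each gene was read by its brightest probe, counting probes whose detection p was under 0.05 on 4 or more of the 14 arrays. At the edge of that filter, Dnajb3 was detected on 4 arrays and was kept, while Cct2 and Cct5 were detected on 2 and were not. Of the 21 genes not measured, which also included Bag2, Hspa13, Hspa14 and Hspb8, 14 were detected on 0 arrays. The prefixes take in more than the cytosol: 7 of the 55 measured genes encode mitochondrial proteins and 6 proteins of the endoplasmic reticulum, which leaves 42. They also take in Hspbp1 and Hspbap1, which bind heat shock proteins and are not small heat shock proteins, and they leave out Tcp1, a further CCT subunit.

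The study profiled hippocampal CA3 of adult Sv129Pas mice on Illumina bead arrays. Wild-type (WT) CA3 was dissected whole from 5 animals (145, 206, 142, 199 and 144), whereas in Dcx mutants, whose CA3 pyramidal cells form a pair of layers, the outer layer (SPE) came from 5 animals (147, 146, 165, 166 and 148) and the inner layer (SPI) from 4 of them (147, 146, 166 and 148). The labels name the mutated gene and no allele. Both mutant groups were compared with a control that held the whole field rather than a matching layer. Groups follow the sample titles: the outer samples carry the code SPI in brackets in their brain region field, although their titles and the rest of that field say outer. Per-array values below follow these orders of animals and are log2 signals after background correction and quantile normalisation. A log2 value belongs to 1 probe and is not set against that of another gene.

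The arrays differed in brightness and in cell type markers along with the groups. Mean raw signal was 371 to 515 in WT, 279 to 482 in SPE and 119 to 362 in SPI. It was lower in SPI than in WT (two-sided exact permutation p = 0.00794), and between the layers of the 4 animals with both it reached p = 0.125, below which 4 pairs cannot go. SPI 147, SPI 148 and SPE 148 were the 3 dimmest arrays. Against WT, SPI was higher for 7 of 8 measured oligodendrocyte markers, 5 of 7 astrocyte, 4 of 5 microglial and 7 of 7 interneuron markers, and for 0 of 3 endothelial markers. Of all features, 13.6% were called higher and 10.9% lower. The marker lists were chosen with earlier results of these data known. Summed log2 levels of the oligodendrocyte markers were 64.8 to 67.8 in WT, 65.9 to 67.7 in SPE and 72.4 to 79.5 in SPI, and those of the interneuron markers 57.8 to 60.2, 56.6 to 60.4 and 67.1 to 70.7. The astrocyte sums were 54.2 to 55.0, 54.3 to 56.4 and 59.4 to 62.9 and the microglial sums 29.1 to 30.3, 30.3 to 31.6 and 34.2 to 36.3. CA3 pyramidal markers summed to 74.7 to 75.6 in WT, 75.3 to 76.0 in SPE and 72.9 to 75.0 in SPI. Against WT they went both ways in SPI, with 1 of 7 called higher (Bok, 0.74) and 1 lower (Cpne4, -0.91). Of 6 general neuron markers 2 were higher (Map2 and Camk2a) and 2 lower (Rbfox3 and Slc17a7). The part of these differences in the chaperone results was not tested, and in bulk tissue fewer cells of a type and less RNA per cell cannot be told apart. Dcx itself was dim on all its probes, and the brightest lay 0.43 ± 0.23 (SE) log2 units below WT in SPI (limma adjusted p = 0.184), so it does not check the labels.

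Promoter sequence is shown for 6 members, because HSF1 binds repeats of the unit GAA in alternating orientation (heat shock elements) and the results below set inducible members beside constitutive ones. RefSeq promoter windows (GRCm38.p6, 300 bases: 250 before and 50 after the start) were at hand for 46 of the 55 measured genes. Both strands were searched for 2 units (GAANNTTC or TTCNNGAA) and for 3 alternating units spaced by 2 bases, of which every match also holds the shorter motif. Each stretch is given 5′ to 3′ in the gene's direction, with the matched units in capitals. The genes are Hspb6 (chr7:30553151-30553218, plus strand), which rose in the inner layer, and Dnaja4 (chr9:54699439-54699506, plus strand), which fell there. Dnajb6 (chr5:29735822-29735894, plus strand) and Hspe1 (chr1:55088029-55088101, plus strand) hold at least 3 units (3 and 4 are marked), and for Hspe1 the same bases, read on the other strand, are the matched stretch of Hspd1, its divergent neighbour. Hspa1a (chr17:34972223-34972290, minus strand) and Hspb1 (chr5:135887772-135887839, plus strand) are classic heat-inducible genes.
Hspb6: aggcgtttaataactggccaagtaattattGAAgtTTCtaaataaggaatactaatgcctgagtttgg
Dnaja4: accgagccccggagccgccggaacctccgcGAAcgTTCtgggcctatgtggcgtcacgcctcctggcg
Dnajb6: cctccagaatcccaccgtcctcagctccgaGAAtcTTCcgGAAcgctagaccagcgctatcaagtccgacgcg
Hspe1: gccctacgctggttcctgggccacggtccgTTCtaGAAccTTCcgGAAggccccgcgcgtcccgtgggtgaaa
Hspa1a: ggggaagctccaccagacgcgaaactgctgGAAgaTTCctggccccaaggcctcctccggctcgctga
Hspb1: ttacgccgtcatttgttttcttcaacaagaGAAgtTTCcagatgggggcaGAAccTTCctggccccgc

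Against WT, the inner layer was higher for 7 members and lower for 4, and no family moved as a block. Hspb6, Bag3, Dnajc4, Bag6, Dnajb2, Bag1 and Cct4 rose, and Hspbp1, Dnaja4, Cct6a and Dnajc30 fell, at a limma adjusted p under 0.05 over all 9355 features. These 11 genes are 20% of the 55, against 24.5% of all features (13.6% higher and 10.9% lower), so the share of chaperone genes called was not above the background. The median difference was 0.10 log2 units over the 55 genes and 0.03 over all features. In 10 of the 55 the SPI and WT arrays did not overlap, against 21.5% of all features. The BAG proteins had 3 of 5 measured genes called higher and 0 lower, the CCT ring 1 higher and 1 lower of 5, the J-domain proteins of classes A, B and C together 2 higher and 2 lower, and the HSP70 and HSP110 group, with 8 genes, 0 in either direction.

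**Figure D1:**
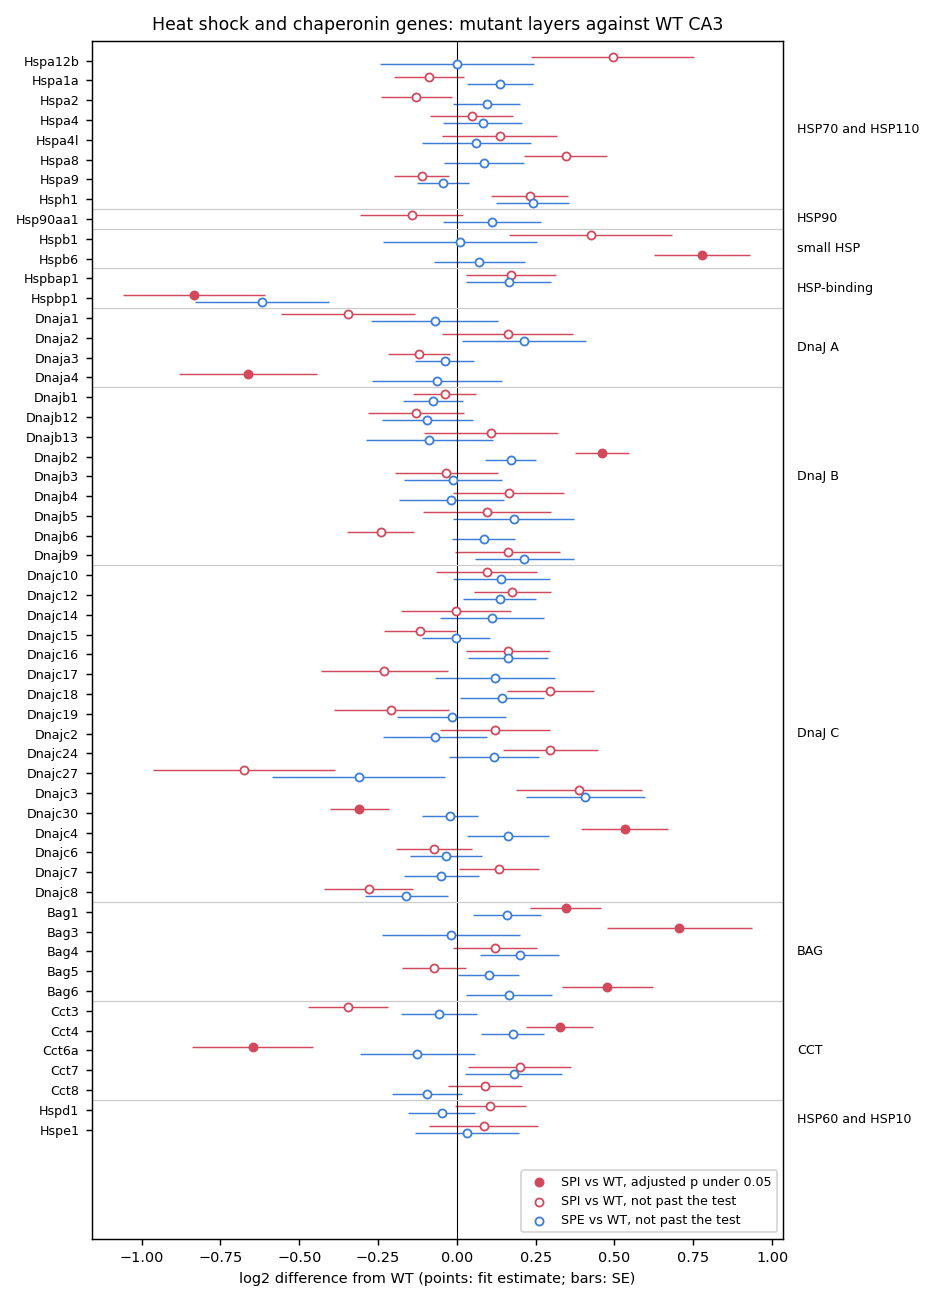
Log2 difference from WT of the 55 measured genes, grouped by family, for the inner layer (SPI, red) and the outer layer (SPE, blue); points are fit estimates, bars are SE, and filled points passed an adjusted p under 0.05. The 11 filled points, 7 to the right and 4 to the left of 0, are all of the inner layer; under scaling to the median of all probes the 7 lie to the left of 0.

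How the arrays were scaled set the sign of several of these differences. Scaling each array to the median of the probes detected on all arrays, in place of quantile normalisation, moved the median difference of all features to 0.34, with 14 members higher and 2 lower. Scaling to the median of all probes, most of which were not detected, moved it to -0.85, with 0 members higher and 23 lower, and turned all 7 rises below 0. Under these scalings 29.1% and 41.8% of members were called, against 34.1% and 43% of all features. Taken relative to the median of all features, all 11 called genes kept their sign under both scalings. Relative to that median, the 4 falls were larger under both scalings than under quantile normalisation, with Hspbp1 at -0.87 before and -1.20 and -1.21 after. The 7 rises were smaller. Hspb6 went from 0.74 to 0.46 and 0.47, Bag3 from 0.67 to 0.40 and 0.41, Dnajc4 from 0.50 to 0.22 under both and Bag1 from 0.31 to 0.16 under both. Bag6 went from 0.44 to 0.11 under both, Dnajb2 from 0.42 to 0.12 and 0.11, and Cct4 from 0.29 to 0.02 under both.

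Hspb6 encodes HSP20, a small heat shock protein that holds unfolded proteins for refolding. Its signal was 7.27, 6.85, 7.28, 7.10 and 7.19 in WT, 7.27, 7.38, 6.88, 7.22 and 7.30 in SPE, and 8.02, 7.91, 7.54 and 8.29 in SPI. Every inner-layer array lay above every other array, while the WT and outer arrays overlapped. SPI exceeded WT by 0.78 ± 0.15 (SE) log2 units, 1.71-fold (limma adjusted p = 0.0029), and SPE by 0.71 ± 0.13 (adjusted p = 0.0017), with a gain of 0.75, 0.53, 0.32 and 1.00 in the 4 animals.

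Bag3, the heat-inducible partner of HSP70 that sends clients to autophagy, was the only called gene of the heat-inducible and core list (1 of 13 measured, 7.69%, against 24.5% of all features). WT arrays read 8.06, 7.51, 8.17, 7.59 and 7.87, SPE arrays 7.98, 7.68, 7.67, 8.17 and 7.61, and SPI arrays 7.83, 9.02, 8.90 and 8.49. The inner layer of animal 147 stayed within the WT range, and the other 3 inner arrays lay above all WT and SPE arrays. The difference was 0.71 ± 0.23 from WT (adjusted p = 0.0369) and 0.72 ± 0.19 from SPE (adjusted p = 0.0168).

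The other BAG proteins called were Bag6, which shields hydrophobic segments of newly made proteins, and Bag1, an HSP70 exchange factor that links it to the proteasome. Bag6 read 9.21, 9.14, 9.21, 9.15 and 9.28 in WT, 9.43, 9.15, 9.23, 9.29 and 9.71 in SPE and 10.13, 9.49, 9.42 and 9.70 in SPI, a difference of 0.48 ± 0.14 (adjusted p = 0.0271) from WT. Bag1 read 11.91, 11.51, 11.88, 11.65 and 11.74 in WT, 11.91, 11.85, 11.88, 11.83 and 12.02 in SPE and 12.31, 11.96, 11.92 and 12.14 in SPI, a difference of 0.35 ± 0.11 (adjusted p = 0.0378). In both genes the 4 inner arrays lay above all WT arrays and overlapped the outer ones, and the difference from SPE did not pass (0.31, adjusted p = 0.0825 for Bag6, and 0.19, adjusted p = 0.179 for Bag1). Bag4 and Bag5, which regulate HSP70 in the cytosol, stood at 0.12 and -0.07 from WT (adjusted p = 0.544 and 0.643).

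Dnajb2, a J-domain protein enriched in neurons that delivers ubiquitinated clients to the proteasome, had the smallest SE of the 55 genes. It read 9.54, 9.48, 9.56, 9.47 and 9.46 in WT, 9.59, 9.66, 9.76, 9.64 and 9.70 in SPE and 10.01, 9.94, 9.96 and 9.91 in SPI. The 3 groups did not overlap and lay in the order WT, outer layer, inner layer. SPI exceeded WT by 0.46 ± 0.09 (adjusted p = 0.0020) and SPE by 0.29 ± 0.07 (adjusted p = 0.0114), and SPE exceeded WT by 0.17 ± 0.08, which did not pass (adjusted p = 0.904). Relative to the median of all features the layers stood 0.30 apart under quantile normalisation, and 0.00 and -0.01 under the scalings. The call between the layers was lost under scaling to the detected probes (adjusted p = 0.0611), with mean signal as a covariate (0.0783), without the 3 dimmest arrays (0.0878) and with a fixed block (0.162). Dnajc4, a class C J-domain protein, read 7.55, 7.19, 7.43, 7.36 and 7.35 in WT, 7.65, 7.30, 7.47, 7.33 and 7.96 in SPE and 7.79, 7.98, 7.75 and 8.13 in SPI. The inner arrays lay above all WT arrays and overlapped the outer layer at SPE 148, with differences of 0.53 ± 0.14 from WT (adjusted p = 0.0133) and 0.37 ± 0.12 from SPE (adjusted p = 0.0361).

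Of the genes that fell, Hspbp1, a nucleotide exchange factor of HSP70, had the largest difference among the 55. It read 9.11, 9.15, 9.24, 9.56 and 8.91 in WT, 8.78, 8.75, 8.73, 8.61 and 8.01 in SPE and 8.67, 8.46, 8.81 and 7.46 in SPI. All mutant arrays of both layers lay below all WT arrays, and both layers of animal 148 were the lowest of their group. The difference from WT was -0.83 ± 0.22 in SPI (1.78-fold lower, adjusted p = 0.0159) and -0.62 ± 0.21 in SPE, where it did not pass (adjusted p = 0.904), and the layers stood -0.21 ± 0.19 apart (adjusted p = 0.443).

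Dnaja4, a cytosolic class A J-domain protein, read 8.59, 7.76, 8.53, 8.12 and 7.71 in WT, 8.30, 8.09, 8.34, 8.26 and 7.42 in SPE and 7.49, 7.55, 7.78 and 7.02 in SPI. The inner arrays overlapped the lower WT arrays, and within each of the 4 animals the inner layer was below the outer, by 0.40 to 0.81. The difference was -0.66 ± 0.22 from WT (adjusted p = 0.0381) and -0.60 ± 0.18 from SPE (adjusted p = 0.0315). Dnajc30, a mitochondrial J-domain protein, read 10.51, 10.36, 10.41, 10.28 and 10.39 in WT, 10.48, 10.42, 10.38, 10.33 and 10.23 in SPE and 10.02, 10.04, 10.12 and 10.13 in SPI. Its inner arrays lay below all others, by -0.31 ± 0.09 on the fit from WT (adjusted p = 0.0275) and -0.29 ± 0.08 from SPE (adjusted p = 0.0193). It was the only called gene of the 7 mitochondrial members measured (14.3%, against 24.5% of all features for SPI against WT and 20.5% for SPI against SPE).

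**Figure D2:**
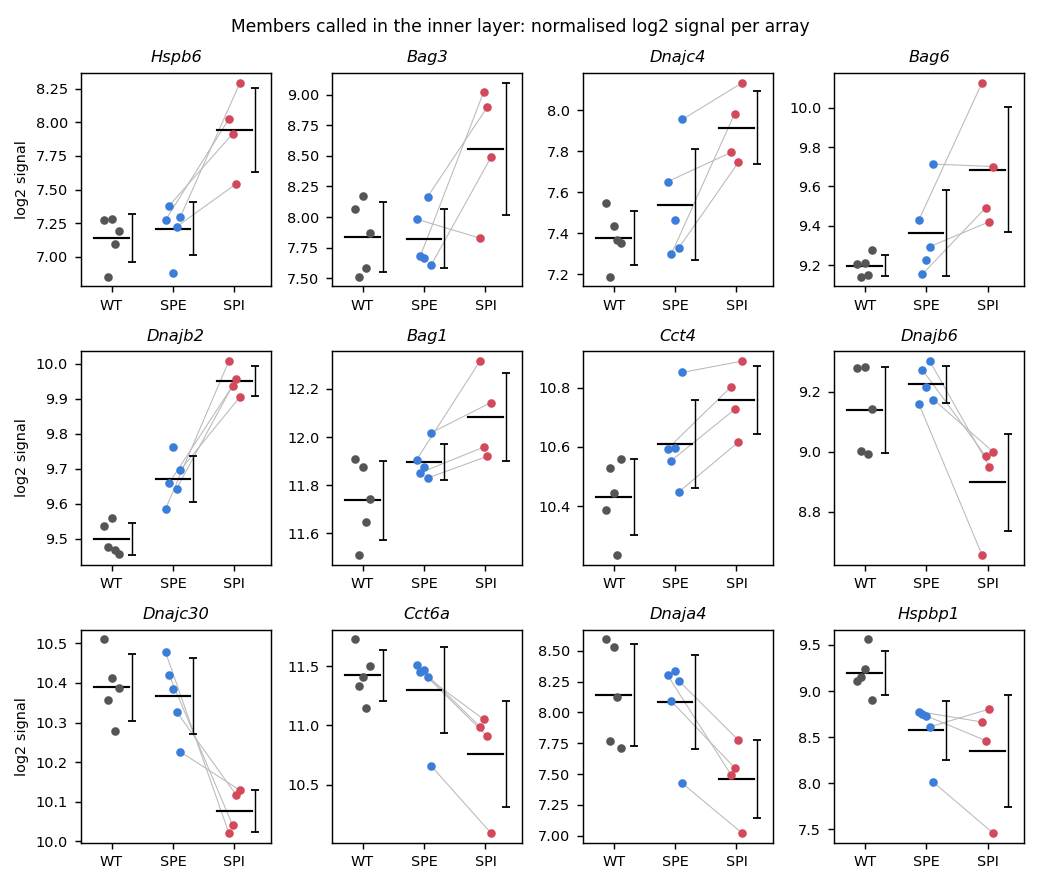
Normalised log2 signal per array of the 12 genes called in the inner layer against WT or against the outer layer; horizontal lines are group means, bars are SD, and grey lines join both layers of 1 animal. Inner-layer arrays of Hspb6 and Dnajb2 lie above all others and those of Dnajc30 below, on quantile-normalised values; under scaling to the median of all probes the fitted differences of Hspb6 and Dnajb2 are below 0.

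The CCT subunits, which sit in equal numbers in 1 ring, did not move together under quantile normalisation. Cct6a, the zeta subunit, read 11.73, 11.33, 11.41, 11.14 and 11.50 in WT, 11.51, 11.45, 11.46, 11.40 and 10.66 in SPE and 10.99, 11.05, 10.91 and 10.09 in SPI, and fell by 0.65 ± 0.19 from WT (adjusted p = 0.0254) and by 0.52 ± 0.16 from SPE (adjusted p = 0.0337). Its inner arrays lay below all WT arrays, animal 148 was lowest in both layers, and the inner layer was below the outer by 0.40 to 0.56 in the 4 animals.

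Cct4, the delta subunit, went the other way under quantile normalisation: it read 10.39, 10.53, 10.45, 10.24 and 10.56 in WT, 10.59, 10.55, 10.60, 10.45 and 10.85 in SPE and 10.80, 10.73, 10.62 and 10.89 in SPI. The inner arrays lay above all WT arrays, by 0.33 ± 0.11 on the fit (adjusted p = 0.0363), and overlapped the outer ones (0.15 ± 0.09, adjusted p = 0.253). Cct3, the gamma subunit, read 10.65, 10.62, 10.63, 10.56 and 10.45 in WT, 10.56, 10.71, 10.60, 10.51 and 10.24 in SPE and 10.35, 10.16, 10.51 and 9.90 in SPI, with -0.34 ± 0.13 from WT (adjusted p = 0.0597). It was called lower than WT in 8 of 27 alternatives, among them the deposited normalised values. Its further probe stood at -1.44 (limma adjusted p over probes 0.0390). Cct8, the theta subunit, read 9.42, 9.44, 9.59, 9.16 and 9.51 in WT, 9.22, 9.23, 9.44, 9.55 and 9.22 in SPE and 9.54, 9.34, 9.49 and 9.64 in SPI, and its groups overlapped (0.09 ± 0.12, adjusted p = 0.622). Cct7, the eta subunit, was near the background, between 4.36 and 5.30 on the 14 arrays and detected on 9 (0.20 ± 0.16, adjusted p = 0.400). Relative to the median of all features, under the scalings described above, Cct4 stood at 0.02 and Cct3 at -0.68 under both. Cct6a stood there at -0.97 and -0.98, Cct8 at -0.27 and -0.28, and the dim Cct7 at 0.95 and 0.96. Tcp1, the alpha subunit outside the symbol rule, stood at -0.61 (adjusted p = 0.0989).

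Apart from Bag3, the heat-inducible and core genes did not pass on their brightest probes. Hspa8, the constitutive HSC70, came nearest: it read 13.77, 13.83, 13.30, 13.86 and 13.82 in WT, 13.75, 13.86, 13.59, 13.74 and 14.07 in SPE and 14.21, 14.02, 13.96 and 14.13 in SPI. The inner arrays lay above all WT arrays (0.34 ± 0.13, adjusted p = 0.0698), and the WT array of animal 142 was the lowest of all. Hspa8 was called higher than WT in 3 of 27 alternatives. These were no background correction, the deposited normalised values and scaling to the median of the detected probes. The further probe of Hspa8 went the other way, at -3.28 (limma adjusted p over probes 0.0093). Hspa1a, the inducible HSP70, whose probe may also read its near-identical neighbour, read 6.88, 7.09, 6.83, 6.88 and 7.08 in WT, 7.09, 6.94, 7.05, 7.35 and 7.01 in SPE and 6.77, 6.91, 7.07 and 6.71 in SPI. Its groups overlapped, at -0.09 ± 0.11 from WT (95% interval -0.33 to 0.15, adjusted p = 0.599).

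Dnajb1, the inducible J-domain partner of HSP70, read 10.62, 10.60, 10.53, 10.34 and 10.67 in WT, 10.38, 10.45, 10.57, 10.47 and 10.49 in SPE and 10.32, 10.59, 10.48 and 10.61 in SPI. It had a narrow interval around 0 (-0.04, -0.25 to 0.17, adjusted p = 0.809). Hsph1, an HSP110 exchange factor, read 11.84, 11.84, 11.98, 11.72 and 11.99 in WT, 11.88, 11.95, 12.22, 12.18 and 12.34 in SPE and 12.05, 11.80, 12.16 and 12.37 in SPI. It stood at 0.23 (-0.03 to 0.49, adjusted p = 0.185) in SPI and 0.24 (-0.01 to 0.49, adjusted p = 0.904) in SPE, with overlapping groups.

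The mitochondrial trio of the core list also overlapped between groups. Hspd1, the HSP60 chaperonin, read 9.43, 9.44, 9.54, 9.37 and 9.39 in WT, 9.32, 9.25, 9.46, 9.51 and 9.40 in SPE and 9.78, 9.55, 9.52 and 9.29 in SPI (0.11 ± 0.11, adjusted p = 0.527). Hspe1, its HSP10 lid, read 6.02, 6.50, 6.24, 6.45 and 6.56 in WT, 5.75, 6.57, 6.40, 6.44 and 6.77 in SPE and 6.17, 6.59, 6.38 and 6.62 in SPI (0.09 ± 0.17, adjusted p = 0.756). On these brightest probes the intervals of both Hspd1 and Hspe1 held 0. The further probe of Hspd1 stood at -1.11 (limma adjusted p over probes 0.0052). The 2 genes share the promoter stretch shown above, and its part in these values was not tested. Hspa9, the mitochondrial HSP70 mortalin, read 11.63, 11.62, 11.60, 11.51 and 11.62 in WT, 11.54, 11.49, 11.55, 11.49 and 11.68 in SPE and 11.45, 11.39, 11.47 and 11.62 in SPI (-0.11 ± 0.09, adjusted p = 0.378).

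The remaining 5 core genes were dim and were not detected on every array. Hsp90aa1, the inducible HSP90, lay between 4.46 and 5.37 and was detected on 4 WT, 5 SPE and 1 SPI arrays (-0.14 ± 0.16, adjusted p = 0.556). Hspa4, an HSP110 protein, lay between 4.46 and 5.10, and Dnajb4, an inducible J-domain protein, between 4.51 and 5.28 (0.05 and 0.16, adjusted p = 0.827 and 0.531). These signals lay close to the background on all 14 arrays. Dnaja1, the main cytosolic class A J-domain protein, read 4.46 in the dimmest array, SPI 147, and 5.25 to 5.76 on the others (-0.35 ± 0.21, adjusted p = 0.252). Hspb1, the inducible HSP25, went the other way on that array, with 6.06 against 4.53 to 5.55 on the others (0.42 ± 0.26, adjusted p = 0.247).

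**Figure D3:**
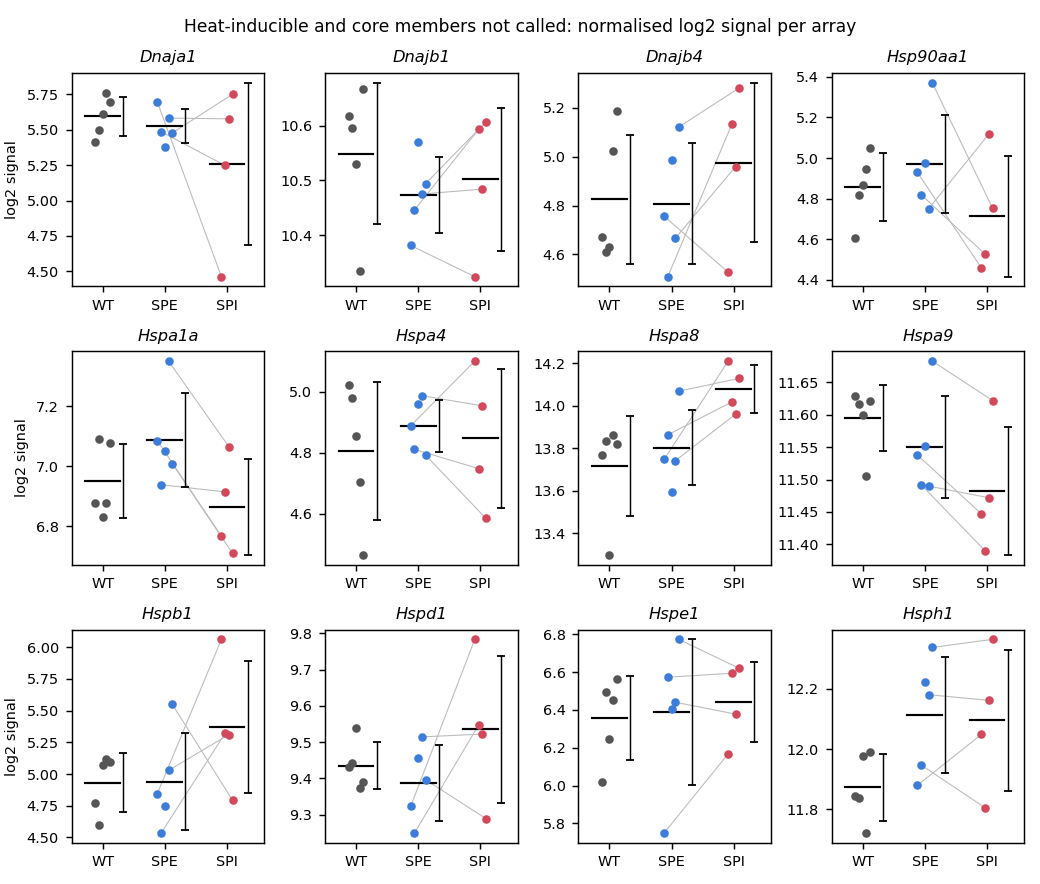
Normalised log2 signal per array of the 12 heat-inducible and core genes that did not pass in any comparison on their brightest probes, drawn as in the plot of called genes (means, SD bars, lines joining layers of 1 animal). The inner-layer arrays of Hspa8 lie above the WT arrays on this probe (below them on its further probe, not drawn), and the groups of the other 11 genes overlap.

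The outer layer was not separable from WT by the test for any member or for any other feature. Of the 55 genes 0 were called, as were 0% of all 9355 features in limma, with a smallest adjusted p of 0.904. At an unadjusted p under 0.05 there were 2 members (Dnajc3 and Hspbp1) and 3.83% of all features. The arrays did not overlap for 2 members, Dnajb2 above and Hspbp1 below, against 1.62% of all features. Dnajc3, a co-chaperone of BiP in the endoplasmic reticulum, read 7.51, 7.60, 7.54, 7.23 and 7.76 in WT, 7.80, 7.60, 7.82, 8.07 and 8.38 in SPE and 7.25, 8.02, 8.01 and 8.42 in SPI. SPI 147 lay within the WT range and the other inner arrays above it, with 0.41 ± 0.19 in SPE (adjusted p = 0.904) and 0.39 ± 0.20 in SPI (adjusted p = 0.167). The SE of a member against WT in this comparison was 0.08 to 0.27 log2 units.

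Between the layers of the mutant, 4 members were higher in SPI (Bag3, Hspb6, Dnajc4 and Dnajb2) and 4 lower (Dnaja4, Cct6a, Dnajb6 and Dnajc30). That is 14.5% of the 55 genes, against 20.5% of all features (10.8% higher and 9.65% lower). The arrays did not overlap for 4 members (Dnajb2 and Hspb6 above, Dnajb6 and Dnajc30 below), against 9.99% of all features. Within the 4 animals, 6 members were higher in the inner layer every time and 8 were lower every time, together 25.5% of the 55 genes, against 35.0% of all features. The comparison shares its inner arrays with the comparison to WT, so genes called in both are not independent support.

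Dnajb6, a J-domain protein that keeps polyglutamine proteins from aggregating, was called only in this comparison. It read 9.28, 9.00, 9.28, 8.99 and 9.14 in WT, 9.16, 9.27, 9.21, 9.30 and 9.17 in SPE and 8.66, 8.99, 8.95 and 9.00 in SPI. The inner arrays lay below all outer arrays and overlapped WT, and the inner layer was below the outer by 0.17 to 0.50 in the 4 animals (-0.33 ± 0.09, adjusted p = 0.0187; from WT -0.24, adjusted p = 0.108). Its further probe also stood lower between layers (-0.75 ± 0.26, adjusted p over probes 0.0493). Calls between the layers differed with how the animal entered the fit. With the animal as a random block there were 4 higher and 4 lower (14.5% of members, against 20.5% of all features). Without it there were 3 and 0 (5.45%, against 11.4%). With the animal as a fixed block there were 0 and 0 (4 and 5 at an unadjusted p under 0.05), and 3.81% of all features were called. That fit held only the 4 animals with both layers, so it also had fewer arrays.

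Probes of the same gene did not always move together. A further probe passed the detection filter for 10 members, and in SPI against WT 6 had the sign of the brightest probe and 4 the opposite sign. Over all probes, 3 of the 10 further probes were called lower and 0 higher, against 26.1% of all 12140 probes called (1770 lower and 1402 higher). The further probe of Hspa8 read 11.20, 9.27, 11.14, 9.54 and 9.83 in WT, 10.25, 10.38, 9.64, 10.21 and 7.39 in SPE and 4.30, 8.34, 8.15 and 6.83 in SPI. All inner arrays lay below all WT arrays, at -3.28 ± 0.80 (adjusted p over probes 0.0093), where the brightest probe stood at 0.34.

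For Hspd1 the further probe stood at -1.11 ± 0.24 (adjusted p over probes 0.0052) beside 0.11, and for Cct3 at -1.44 ± 0.48 (adjusted p over probes 0.0390) beside -0.34. On the further probes of Hspa8 and Hspd1 the lowest inner array was the dimmest, SPI 147, at 4.30 and 4.28, and for Cct3 it was SPI 148, at 4.65. Where each probe lies in its transcript was not analysed here, and the part of array brightness in these differences was not tested. Averaging a gene's probes instead of taking the brightest turned Hspa8 to -1.47 and Hspd1 to -0.50 in SPI against WT and brought the members called lower from 4 to 7. Of all 9355 features, those called lower went from 1016 to 1236.

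**Figure D4:**
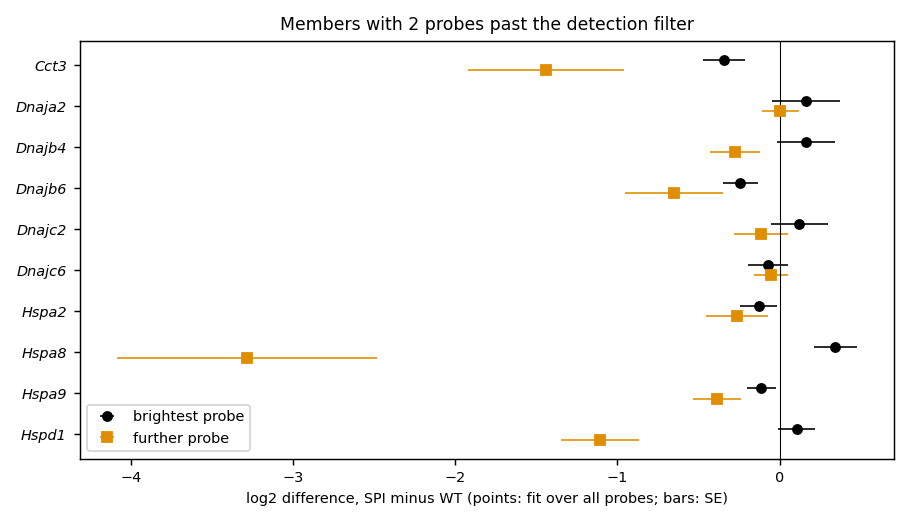
Log2 difference of SPI from WT for the 10 members with 2 probes past the detection filter, with the brightest probe (black circles) and the further probe (orange squares); points are estimates of the fit over all probes and bars are SE. The further probes of Hspa8, Hspd1 and Cct3 stand at -3.28, -1.11 and -1.44, while their brightest probes stand at 0.34, 0.11 and -0.34.

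The 27 members not given in full did not pass in any comparison. Against WT, SPI stood above 0 for 15 and below for 12, from -0.67 for Dnajc27, a small GTPase with a J domain (adjusted p = 0.0992), to 0.49 for Hspa12b, a distant HSP70 of endothelium (adjusted p = 0.174). In Dnajc6, the auxilin that uncoats clathrin vesicles at synapses, the difference was -0.07 ± 0.12, and in Dnajc7, which hands clients from HSP70 to HSP90, 0.13 ± 0.13. The 6 members of the endoplasmic reticulum lay between -0.13 and 0.39, with 0 called and a smallest adjusted p of 0.132. The mitochondrial import factors Dnajc15 and Dnajc19 stood at -0.12 and -0.21.

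The 2-unit match lay in promoter windows of members called higher, called lower and not called. A 2-unit match lay in 14 of the 46 members with a promoter window (30.4%), against 16.97% of 27025 genes, and a 3-unit match in 4 (8.70%), against 0.662%. Those 4 were Hspd1, Hspe1, Dnajb6 and Hsph1, and the pair Hspd1 and Hspe1 counts 1 stretch of DNA under both names. By call in SPI against WT, the 2-unit match lay in 2 of 6 members called higher (Bag3 and Hspb6), 2 of 3 called lower (Cct6a and Dnaja4) and 10 of 37 not called. The 3-unit match lay in 0 of the members called in that comparison. By call in SPI against SPE, the 2-unit match lay in 2 of 4 members called higher (Bag3 and Hspb6). It lay in 3 of 3 called lower with a window (Cct6a, Dnaja4 and Dnajb6) and 9 of 39 not called. Of the members called between the layers, Dnajb6 held the 3-unit match. These counts describe letters in the windows and say nothing of HSF1 binding.

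Partners of these chaperones outside the symbol rule had 30 of 37 listed genes measured, of which 2 were higher and 3 lower in SPI than in WT (16.7%, against 24.5% of all features). Cryab, the small heat shock protein alphaB-crystallin, had a WT mean of 6.05 ± 0.28 (SD, n = 5), an outer-layer mean of 5.99 ± 0.18 (n = 5) and an inner-layer mean of 6.74 ± 0.24 (n = 4), and rose by 0.69 ± 0.16 (SE, limma adjusted p = 0.0084). Cdc37l1, related to the HSP90 cochaperone Cdc37, rose by 0.38 ± 0.13 (adjusted p = 0.0404); relative to the median of all features it stood at 0.34, and at 0.02 and 0.01 under the scalings described above, where Cryab stood at 0.62 and 0.62. The HSP90 cochaperones Stip1, which bridges HSP70 and HSP90, and Ahsa1, which speeds its ATPase, stood at -0.54 ± 0.17 (adjusted p = 0.0292) and -0.76 ± 0.26 (adjusted p = 0.0447). Pdcl, a phosducin-like cofactor of CCT, was 6.09 ± 0.32 in WT, 6.11 ± 0.33 in SPE and 5.21 ± 0.56 in SPI (-0.86 ± 0.26, adjusted p = 0.0255). The Pdcl difference from WT was -0.05 under scaling to the detected probes and -0.33 with no background correction, and the SPI difference from SPE was -0.12 under that scaling.

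Between the layers, Cryab (0.75) and Cdc37l1 (0.39) were higher and Pdcl (-0.88) and Hsf2, a heat shock transcription factor (-0.50, adjusted p = 0.0394), lower. These are 4 of the 30 partners (13.3%, against 20.5% of all features). Hsf2 was detected on 10 of 14 arrays and turned to 0.45 under scaling to the median of the probes detected on all arrays. In the outer layer 0 of 30 partners were called against WT. Of 10 immediate early genes measured, which respond to activity and handling, Dusp1 (0.68 ± 0.16, adjusted p = 0.0078) and Arc (0.53 ± 0.16, adjusted p = 0.0253) were higher in SPI than in WT. That is 20% of the list, against 24.5% of all features.

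The counts of the inner layer against WT differed between alternatives. With mean raw signal as a covariate 3 members were called higher and 0 lower (1 lower at an unadjusted p under 0.05). That is 5.45% of members, against 5.38% of all features. Of the 11 called genes Bag3 and Dnajb2 stayed called. Among the 9 that did not, Hspb6 stood at 0.64 (adjusted p = 0.0771), Dnajc4 at 0.55 (0.0952) and Hspbp1 at -0.83 (0.112). Leaving out the 3 dimmest arrays kept only SPI 146 and SPI 166 in the inner group. The counts were then 7 and 4 (20% of members, against 19.7% of all features), but only 7 of the 11 genes were retained. Leaving out SPI 148 gave 3 higher and 2 lower, WT 199 gave 3 and 3, WT 206 gave 4 and 4, WT 145 gave 5 and 1, and WT 142 or SPI 146 gave 5 and 2. In these fits 9.09% to 14.8% of members were called, against 17.4% to 21.8% of all features. Between the layers, leaving out SPI 148 gave 2 higher and 0 lower (6 lower at an unadjusted p under 0.05), SPE 146 gave 2 and 1, SPI 146 gave 2 and 4, and SPE 165 or SPE 166 gave 3 and 2. Here 3.64% to 10.9% of members were called, against 10.2% to 19.5% of all features.

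By gene, the calls against WT of Hspb6, Dnajb2, Dnajc4 and Hspbp1 held with each of the 14 arrays left out in turn. Cct6a lost its call without WT 145 or SPI 148 (-0.57 and -0.45, adjusted p = 0.0626 and 0.103), and Dnajc30 without WT 145, WT 142, SPI 147 or SPI 146 (-0.31 to -0.27, adjusted p up to 0.0689). Bag3 lost it without WT 206, WT 199, WT 144, SPI 146, SPI 166 or SPI 148 (0.53 to 0.74, adjusted p up to 0.106). Bag6 lost it without WT 145, WT 206, WT 142, WT 199, SPI 147 or SPI 148 (0.33 to 0.48, adjusted p up to 0.0577). Cct4 and Dnaja4 lost theirs without WT 145, WT 142, WT 199, SPI 147, SPI 146 or SPI 148, Cct4 at 0.28 to 0.33 (adjusted p up to 0.0978) and Dnaja4 at -0.68 to -0.54 (adjusted p up to 0.120). Bag1 lost it without any of 8 arrays: WT 206, WT 199, WT 144, SPI 147, SPI 148, SPE 147, SPE 146 or SPE 166 (0.27 to 0.35, adjusted p up to 0.0909). All 11 kept their sign in these fits.

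Between the layers, Hspb6 and Dnajb2 kept their calls with each array left out. Dnajb6 lost its call without SPI 148 (-0.36, adjusted p = 0.0550) and Dnajc30 without SPI 148 or SPE 146 (-0.31 and -0.27, adjusted p = 0.0574 and 0.0502). Bag3 lost it without SPI 146, SPI 148, SPE 146 or SPE 148 (0.55 to 0.75, adjusted p up to 0.0624). Cct6a and Dnaja4 lost theirs without SPI 148, SPE 146, SPE 165 or SPE 166, Cct6a at -0.51 to -0.32 (adjusted p up to 0.256) and Dnaja4 at -0.60 to -0.48 (adjusted p up to 0.190). Dnajc4 lost it without any of these 4 arrays or SPI 146 (0.29 to 0.36, adjusted p up to 0.182).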

How the data were processed

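Illumina bead arrays measured RNA from 14 dissected CA3 samples of 10 mice; the titles name the animals, which were taken as biological replicates. Dissected pieces were pooled for total RNA, per the labels' protocols, which was amplified and biotin-labelled, and per the submitters' processing notes BeadStudio was used. The deposited tables hold, per the file headers, raw probe intensity and a detection p-value, and normalised intensity values; other steps of the authors are not given in the sources used here.

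From the raw intensities, background was corrected and arrays were quantile-normalised with limma 3.58.1 (R 4.3.3; neqc from detection p-values, offset 16), and log2 values were taken. A probe was kept where 4 or more arrays had a detection p under 0.05 (12140 of 25697 probes), and the brightest probe stood for each gene, giving 9355 features. Platform annotation named 23978 probes and left 1719 without a name. All 3 groups entered 1 limma fit with the animal as a random block (correlation 0.319), tests were adjusted by Benjamini-Hochberg over all features, and called means an adjusted p under 0.05. The titles pair the samples of the animals that gave both layers. Departures of an animal's inner and outer array from their groups correlated over features, with 0.131 in animal 147, 0.262 in 146, 0.266 in 166 and 0.626 in 148. Correlations between different animals were not computed, so these values do not test the pairing. Both arrays of animal 148 were among the 3 dimmest. The block correlation depended on single arrays. It was 0.0453 without SPI 148, 0.0737 without SPE 148 and -0.0275 without the 3 dimmest arrays. Without SPE 147 or SPI 147 it was 0.541 and 0.493. The number of arrays limits the precision.

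Named genes were, per comparison, the up to 6 largest rises and falls among called members, or where too few were called the 4 members of smallest p, with the core genes and CCT subunits; called partners were named too. Members and gene lists were chosen with earlier results of these data known. Alternatives covered background, scaling, filter, probe choice, block, array weights, mean signal, the dimmest arrays, the groups in the fit and each array left out. Median scaling was run over all probes, as planned, and then, chosen after seeing its results and that most probes were not detected, over the probes detected on all arrays; both are given. Promoter windows are from RefSeq (GRCm38.p6).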

Additional observations from a re-analysis of the deposited data

Results flagged for a closer look

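Among 84 groups of arrays (28 named members in 3 groups each), 7 had a highest or lowest array set far apart from the others by Dixon's test at the 95% level, a test that by chance marks about 1 in 20 groups. SPE 148, among the 3 dimmest arrays, was the lowest of its group for Cct6a (10.66, next 11.40), Dnaja4 (7.42, next 8.09) and Hspbp1 (8.01, next 8.61). The inner layer of the same animal, SPI 148, was lowest for Cct6a (10.09, next 10.91). SPI 147, the dimmest array, was lowest for Dnajb6 (8.66, next 8.95). Among WT arrays, WT 142 was lowest for Hspa8 (13.30, next 13.77) and WT 199 for Hspa9 (11.51, next 11.60). Whether brightness or tissue set these values was not tested.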

How the results depend on the processing

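Counts of members called higher and lower were 7 and 4 for SPI against WT and 4 and 4 for SPI against SPE, and 0 and 0 for SPE against WT under all alternatives run. For SPI against WT they were 14 and 2 under median scaling, 0 and 23 under median scaling over all probes, 3 and 0 with mean signal as a covariate, 4 and 2 with only the groups compared, 6 and 2 with no detection filter and 7 and 7 with all probes of a gene averaged. In that order 29.1%, 41.8%, 5.45%, 11.1%, 10.5% and 25.5% of members were called. The shares of all features were 34.1%, 43%, 5.38%, 19.6%, 11.1% and 25%. Counts were 8 and 5 with no background correction and with the deposited normalised values (23.6% of members, against 26.3% and 26.2% of all features). Array weights gave 9 and 6 (27.3%, against 28%), and detection on all 14 arrays gave 7 and 5 (28.6%, against 32.6%). Among the named genes that gained a call were Cct3 in 8 of 27 alternatives, Dnajc3 in 4, Hspa8 in 3 and Cct7 in 3 of 26. Leaving out single arrays gave 3 to 7 higher and 1 to 5 lower (9.09% to 21.8% of members, against 17.4% to 28.1% of all features). For SPI against SPE they were 8 and 2 under median scaling, 0 and 0 under median scaling over all probes (0 and 33 at an unadjusted p under 0.05), 2 and 2 with no detection filter, 8 and 6 with array weights, 3 and 0 with mean signal as a covariate, 4 and 1 without the 3 dimmest arrays and 3 and 2 with only the groups compared. In that order 18.2%, 0%, 5.26%, 25.5%, 5.45%, 9.09% and 9.62% of members were called. The shares of all features were 20.3%, 0%, 7.03%, 30.3%, 8.35%, 12.7% and 14.3%. Between the layers, counts were 4 and 5 with no background correction and with the deposited values (16.4% of members, against 21.6% and 21.5%). Detection on all 14 arrays gave 5 and 5 (23.8%, against 29.5%). Leaving out single arrays gave 2 to 5 higher and 0 to 6 lower (3.64% to 20% of members, against 10.2% to 23.9% of all features). The cause of these shifts was not tested, except that fewer arrays or more features enter some of the fits.

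The animals pair the layers, and the calls between them differed with the replicate block. Without the block 3 members were higher and 0 lower (5 lower at an unadjusted p under 0.05), with 11.4% of all features called. The replicate block as a fixed effect gave 0 and 0, with 3.81% of all features called. That fit also had fewer arrays, as it held only animals with both layers. Against WT the counts without the block were 7 and 4 (20% of members, against 24.6% of all features).

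Of the values called in either fit, median scaling over all probes reversed the SPI against WT differences of Bag1 (-0.69), Bag3 (-0.45), Bag6 (-0.74), Cct4 (-0.83), Cct8 (-1.13), Dnajb2 (-0.74), Dnajc4 (-0.63), Hspb6 (-0.39), Hspd1 (-1.13) and Hspe1 (-0.78), and the SPI against SPE values of Bag3 (-0.20), Dnajb2 (-0.73), Dnajc4 (-0.57) and Hspb6 (-0.23). Values called in neither fit also turned, such as Hsph1 (-0.83) and Dnajc3 (-0.72) against WT and Bag1 (-0.70) and Bag6 (-0.72) against SPE. By construction it ties each array to probes near background. The mean of a gene's probes reversed Hspa8 (-1.47 against WT and -1.20 against SPE) and Hspd1 (-0.50 against WT). Members near the background, such as Hsp90aa1, Hspa4, Cct7 and Dnajb4, are limited by signal: they were detected on 7 to 10 of 14 arrays.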
